A study of Mus musculus with 10 samples.

Results

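The Xlr genes (X-linked lymphocyte-regulated) described here are 8 genes of the mouse X chromosome, Xlr3a, Xlr3b, Xlr3c, Xlr4a, Xlr4b, Xlr4c, Xlr5a and Xlr5c, of 30460 genes listed in each of 10 RNA sequencing libraries. They were taken by symbol, by matching the Ensembl identifiers of the files to GENCODE M21, and they were selected on their FPKM values in these libraries, since their levels in the knockout and wild type cells were known when they were chosen. Their differences between genotypes are therefore given as a description, with no test. The libraries come from C57BL/6 mouse embryonic stem cells, which are cultured and can form every tissue of the embryo. There are 3 libraries labelled Mga-/-, 2 labelled L3mbtl2-/-, 2 labelled Pcgf6-/- and 3 of wild type cells, and the labels give no other allele or agent. The sources used here give neither clones nor culture conditions. They do not say whether replicates were separate cultures, so p-values of other genes speak only of the spread among these samples, and that spread may be technical.

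MGA, L3MBTL2 and PCGF6 are subunits of PRC1.6, a Polycomb complex that keeps germ cell genes silent in embryonic stem cells. The Xlr proteins belong to the superfamily of SYCP3, which is part of the protein axis of meiotic chromosomes. In mouse spermatocytes XLR3 protein is found at the body that holds the silenced sex chromosomes. In mouse brain Xlr3b, Xlr4b and Xlr4c are imprinted and are expressed mainly from the maternal X chromosome. Raised Xlr3b in mouse neurons that carry an Atrx mutation has been tied to altered transport of mRNA in dendrites. The individual roles of the Xlr4 and Xlr5 proteins are less well known.

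The 8 genes lie in a cluster of 219 kb on chromosome X, between 73074345 and 73292976 (GRCm38, GENCODE M21). Xlr3a (ENSMUSG00000057836), Xlr3c (ENSMUSG00000058147), Xlr4a (ENSMUSG00000079845), Xlr4c (ENSMUSG00000031362), Xlr5a (ENSMUSG00000058328) and Xlr5c (ENSMUSG00000067764) are on the minus strand. Xlr3b (ENSMUSG00000073125) and Xlr4b (ENSMUSG00000067768) are on the plus strand. By their RefSeq positions the order along the chromosome is Xlr4a, Xlr3a, Xlr5a, Xlr5b, Xlr3b, Xlr4b, Xlr4c, Xlr3c and Xlr5c. Xlr5b is a further copy that is not among the 8. All 8 members were also found in the RefSeq promoter table of GRCm38.p6, which holds 250 bases before to 50 bases after each annotated start.

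The 160 bases just before the annotated start are shown for 7 members, because the 3 Xlr3 copies and the 3 Xlr4 copies are nearly alike there and yet their RNA levels differed between genotypes. The stretches are chrX:73097096-73097255 (minus strand), chrX:73192019-73192178 (plus), chrX:73265391-73265550 (minus), chrX:73082508-73082667 (minus), chrX:73214173-73214332 (plus), chrX:73243131-73243290 (minus) and chrX:73117703-73117862 (minus), from RefSeq, GRCm38.p6. They are written 5′ to 3′, and capitals mark CCAAT, a common promoter element. The annotated starts of the copies differ, so like stretches are shifted against each other. The stretches of Xlr3c and Xlr5a lie wholly inside the RefSeq spans of these genes (73254538 to 73265576 and 73107621 to 73118717). The stretch of Xlr5c, not shown, also lies inside the span of its gene (73283361 to 73293863). For Xlr3c, Xlr5a and Xlr5c the window need not hold the promoter. The stretches of Xlr3b, Xlr4a and Xlr4b run partly into their RefSeq spans (73192150 to 73202930, 73074343 to 73082527 and 73214321 to 73222453).
Xlr3a: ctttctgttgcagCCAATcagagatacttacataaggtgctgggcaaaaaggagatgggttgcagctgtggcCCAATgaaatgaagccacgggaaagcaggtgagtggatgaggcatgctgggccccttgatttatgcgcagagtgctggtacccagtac
Xlr3b: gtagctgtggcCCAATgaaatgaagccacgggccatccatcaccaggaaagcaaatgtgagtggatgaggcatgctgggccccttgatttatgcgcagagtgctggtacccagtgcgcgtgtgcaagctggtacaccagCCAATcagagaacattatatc
Xlr3c: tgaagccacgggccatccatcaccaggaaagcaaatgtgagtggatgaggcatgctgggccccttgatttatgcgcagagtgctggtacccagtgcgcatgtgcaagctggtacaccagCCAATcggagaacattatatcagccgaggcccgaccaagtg
Xlr4a: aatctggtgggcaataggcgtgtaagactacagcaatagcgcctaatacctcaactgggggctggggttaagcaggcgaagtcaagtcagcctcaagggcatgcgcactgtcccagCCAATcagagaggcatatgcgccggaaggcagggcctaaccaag
Xlr4b: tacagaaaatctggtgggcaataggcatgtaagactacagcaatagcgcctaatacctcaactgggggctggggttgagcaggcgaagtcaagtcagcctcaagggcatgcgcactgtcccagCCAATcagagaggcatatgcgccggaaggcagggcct
Xlr4c: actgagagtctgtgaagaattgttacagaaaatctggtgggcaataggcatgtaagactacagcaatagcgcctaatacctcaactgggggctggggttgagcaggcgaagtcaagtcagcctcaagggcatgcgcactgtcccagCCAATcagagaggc
Xlr5a: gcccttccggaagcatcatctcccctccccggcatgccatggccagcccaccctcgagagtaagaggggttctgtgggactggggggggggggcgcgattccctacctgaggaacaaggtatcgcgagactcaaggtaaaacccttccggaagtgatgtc

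Over the 300 bases of the promoter window, Xlr3b and Xlr3c were 98.1% identical over 269 aligned bases, Xlr3a and Xlr3c 95.4% over 219, and Xlr4b and Xlr4c 98.9% over 277. The motif CCAAT, searched on both strands and chosen after the sequences had been seen, was in 7 of the 8 windows and in 37.4% of all 32851 promoter windows. Xlr5c was the member without it, but its window starts from a position inside the RefSeq span of the gene. The windows of Xlr5a and Xlr5c were 63.7% identical over 215 aligned bases. A further 3 motifs were searched on both strands, namely CACGTG (an E-box), AGGTGTGA (a T-box element) and GCGGGAA (an E2F element). They are in 7.15%, 1.28% and 4.60% of all promoter windows. None of the 8 members held any of them, which says only that these letters are not in these windows.

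The copies also share most of their RNA sequence, and this limits what a level of a single copy means. Between the longest protein-coding transcripts, identity was 98.5% to 99.3% over the 7 pairs within Xlr3, Xlr4 or Xlr5. It was 63.6% to 73.7% over the 21 pairs between them. Of all 50-base words in a member's transcripts, 44.8% (Xlr3a) to 84.4% (Xlr5c) also occurred in transcripts of another gene. Of 100-base words, 24.4% (Xlr3a) to 69.1% (Xlr5a) did. No source used here gives the read length or the handling of reads that map to several places. The split between copies of 1 subfamily is therefore uncertain, and the sum over the family is given beside it. Xlr5a and Xlr5c also share 101 exon bases in the annotation. The exon lengths differ as well, 4045 bases for Xlr3a and 3780 for Xlr3b against 1584 for Xlr3c, because the annotation of Xlr3a and Xlr3b holds transcripts with retained introns. A level per length is lower for the same reads when the length is longer, so reads are given where copies are compared.

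Library depth, worked out from the value of 1 read, lay between 19400000 and 26700000 reads (rounded), and the values of all 8 members came out as whole reads in every library. The defining markers of embryonic stem cells were present, with all 10 at 0.5 FPKM (fragments scaled to exon length and library depth) or more in every library. Their sum was 3481 to 3731 FPKM in libraries labelled Mga-/-, 3750 to 3819 in L3mbtl2-/-, 4138 to 4262 in Pcgf6-/- and 2437 to 2635 in wild type, so it was higher in the knockouts as the family was, and its part in the Xlr levels was not tested. Mga was at 8.03, 19.6 and 11.2 FPKM in replicates 1, 2 and 3 labelled Mga-/-, against 18.5 ± 1.30 FPKM in wild type cells (SD, n = 3). Mga RNA in the library labelled Mga-/- replicate 2 was thus at the wild type level. The level of this RNA alone does not settle the genotype of that library, which was not tested. Values given below for Mga-/- cells are those of the 3 libraries with that label, replicate 2 included unless stated. L3mbtl2 was at 3.72 and 3.49 FPKM in L3mbtl2-/- cells, against 20.2 ± 0.382 FPKM in wild type cells (SD, n = 3). Pcgf6 was at 9.56 and 9.82 FPKM in Pcgf6-/- cells, against 28.9 ± 1.13 FPKM in wild type cells (SD, n = 3). Lymphocyte markers, of interest because the family is named after lymphocytes, summed over 12 genes to 4.79 to 9.004 FPKM in libraries labelled Mga-/-, 6.04 to 7.33 in L3mbtl2-/-, 17.1 to 19.3 in Pcgf6-/- and 10.3 to 11.2 in wild type. Of the 12, 3 were at 0.5 FPKM or more in every library labelled Mga-/-, and 4 in every library of each other group. Rag2 and Ms4a1, which mark developing lymphocytes and B cells, had no reads in L3mbtl2-/-, Pcgf6-/- or wild type libraries, while in the libraries labelled Mga-/- Rag2 had none. The part of lymphocyte RNA in the levels below was not tested.

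Summed over the 8 members, the family was at 9.32, 85.9 and 34.8 FPKM in replicates 1, 2 and 3 labelled Mga-/-. The sum was 21.8 and 18.2 FPKM in L3mbtl2-/- cells, 51.3 and 49.1 FPKM in Pcgf6-/- cells, and 1.41, 1.48 and 1.74 FPKM in wild type cells. Every knockout library was above every wild type library. The mean differences of log2(FPKM + 0.1) from wild type were 4.22 in Mga-/-, 3.61 in L3mbtl2-/- and 4.94 in Pcgf6-/- cells, with combined standard deviations of the groups compared of 1.61, 0.24 and 0.16. In these bulk samples, more cells with the RNA and more RNA per cell in the knockouts cannot be told apart.

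The order of group means was Pcgf6-/-, Mga-/-, L3mbtl2-/- and wild type. The libraries labelled Mga-/- overlapped both neighbours in that order, and they overlapped Pcgf6-/- only through replicate 2, whereas the 2 Pcgf6-/- libraries lay above the 2 L3mbtl2-/- libraries with a log2 difference of L3mbtl2-/- from Pcgf6-/- of -1.33 (combined SD 0.19). Between Mga-/- and L3mbtl2-/- cells the log2 difference was 0.61 (combined SD 1.61), and it was -0.14 without the library labelled Mga-/- replicate 2. Between Mga-/- and Pcgf6-/- cells it was -0.72 (combined SD 1.605), 0.12 without the library labelled Mga-/- replicate 1 and -1.47 without replicate 2. The highest of the libraries labelled Mga-/- had 9.22 times the family sum of the lowest, so the mean of that group describes no library well.

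**Figure D1:**
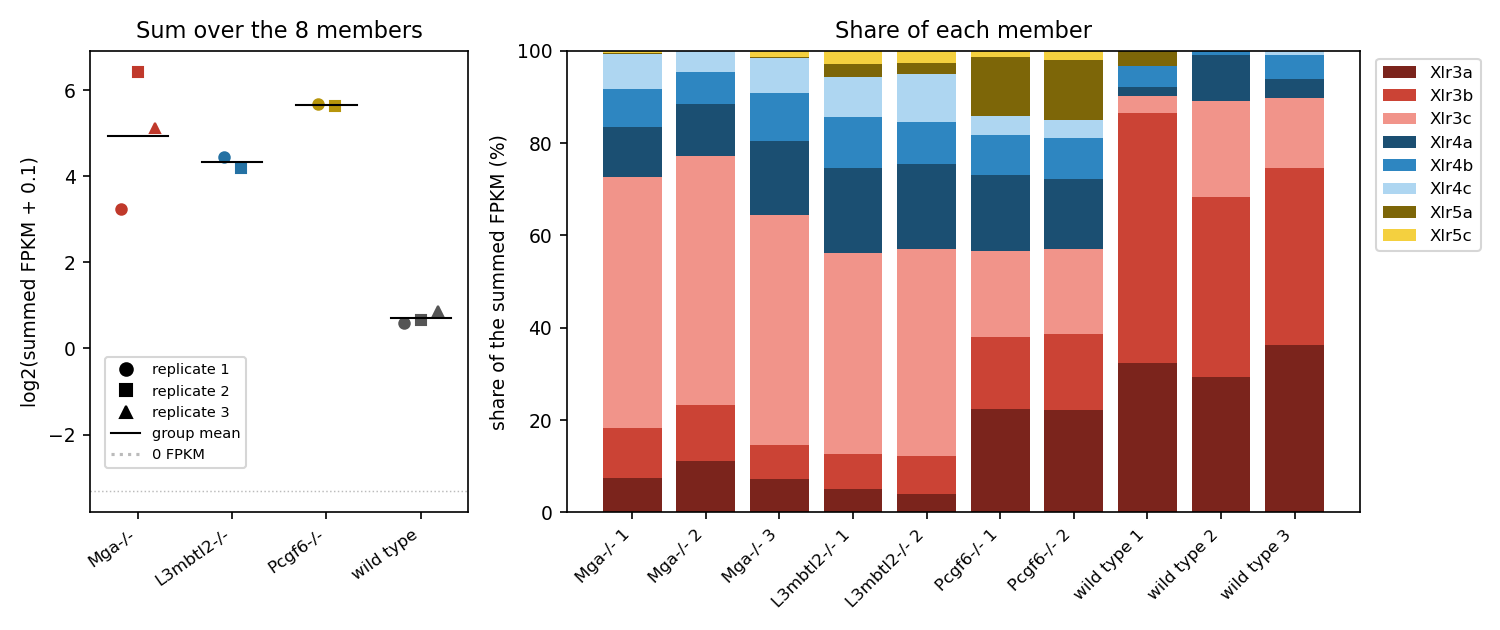
Left, log2(summed FPKM + 0.1) of the 8 members in each library, with a line at the group mean; right, the share of that sum held by each member, as bars per library. All 7 knockout libraries sit above the 3 wild type libraries, and Xlr3c holds 43.5% to 54.3% of the sum in the Mga-/- and L3mbtl2-/- libraries but 18.5% to 18.7% in Pcgf6-/-.

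The library labelled Mga-/- replicate 2, in which Mga was at the wild type level, had the highest family sum of all 10 libraries, and replicate 1, with the lowest Mga level, had the lowest sum of the knockout libraries. At 6 members (Xlr3a, Xlr3b, Xlr3c, Xlr4a, Xlr4b and Xlr4c) the libraries labelled Mga-/- stood in the order replicate 2, replicate 3, replicate 1. For Xlr5a and Xlr5c replicate 3 was the highest. Without replicate 2 the family sum was still 3.47 higher on the log2 scale in the libraries labelled Mga-/- than in wild type. Macrophage markers, summed over 10 genes, were at 9.14 to 31.95 FPKM in libraries labelled Mga-/-, 456 to 467 in L3mbtl2-/-, 209 to 212 in Pcgf6-/- and 160 to 167 in wild type. Fibroblast markers, also 10 genes, were at 508 FPKM in the library labelled Mga-/- replicate 1 and at 159 to 177 in the other 2 libraries of that label, 159 to 160 in L3mbtl2-/-, 102 to 106 in Pcgf6-/- and 144 to 146 in wild type. The part of these cells in the Xlr levels was not tested.

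In wild type cells all 8 members were under 1 FPKM in every library, and 8 of 8 had their lowest group mean there. Xlr3a and Xlr3b together supplied most of the wild type reads, with 159 and 194 reads over the 3 libraries. Xlr3c had 26 reads, Xlr4a 10, Xlr4b 11, Xlr4c 1, Xlr5a 2 and Xlr5c none.

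Xlr3c, on the right of the cluster, was at 5.07, 46.3 and 17.3 FPKM in replicates 1, 2 and 3 labelled Mga-/-, at 9.49 and 8.17 FPKM in L3mbtl2-/- cells, at 9.59 and 9.06 FPKM in Pcgf6-/- cells, and at 0.0528, 0.307 and 0.261 FPKM in wild type cells. It was the member with the largest mean share of the family sum, 32.3% over the 10 libraries, but in Pcgf6-/- cells Xlr3a held more (22.4% against 18.6%), and in wild type cells Xlr3b (43.8%) and Xlr3a (32.7%) held more than its 13.2%. Its log2 differences from wild type were 5.83 in Mga-/-, 4.98 in L3mbtl2-/- and 5.06 in Pcgf6-/- cells. No knockout library overlapped a wild type library, and the Mga-/- libraries spanned the levels of both other knockouts.

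Xlr3a, the copy in the left of the cluster, was at 0.688, 9.59 and 2.53 FPKM in replicates 1, 2 and 3 labelled Mga-/-, at 1.09 and 0.708 FPKM in L3mbtl2-/- cells, at 11.5 and 10.9 FPKM in Pcgf6-/- cells, and at 0.455, 0.435 and 0.632 FPKM in wild type cells. Both Pcgf6-/- libraries lay above all other libraries, while replicate 1 of Mga-/- and replicate 2 of L3mbtl2-/- lay just above the highest wild type library. The log2 differences from wild type were 2.18 in Mga-/-, 0.71 in L3mbtl2-/- and 4.23 in Pcgf6-/- cells, with combined standard deviations of 1.83, 0.47 and 0.25. The Mga-/- value was 1.26 without the library labelled Mga-/- replicate 2, and the L3mbtl2-/- value was 0.43 without L3mbtl2-/- replicate 1.

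Xlr3b followed the same order of group means. Its level was 1.013, 10.4 and 2.55 FPKM in replicates 1, 2 and 3 labelled Mga-/-, 1.68 and 1.52 FPKM in L3mbtl2-/- cells, 7.97 and 8.02 FPKM in Pcgf6-/- cells, and 0.763, 0.574 and 0.666 FPKM in wild type cells. The log2 differences from wild type were 2.04, 1.15 and 3.41 in Mga-/-, L3mbtl2-/- and Pcgf6-/- cells. The Mga-/- value was 1.17 without the library labelled Mga-/- replicate 2. Here the highest single library was Mga-/- replicate 2, and the Pcgf6-/- libraries lay between it and replicate 3.

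**Figure D2:**
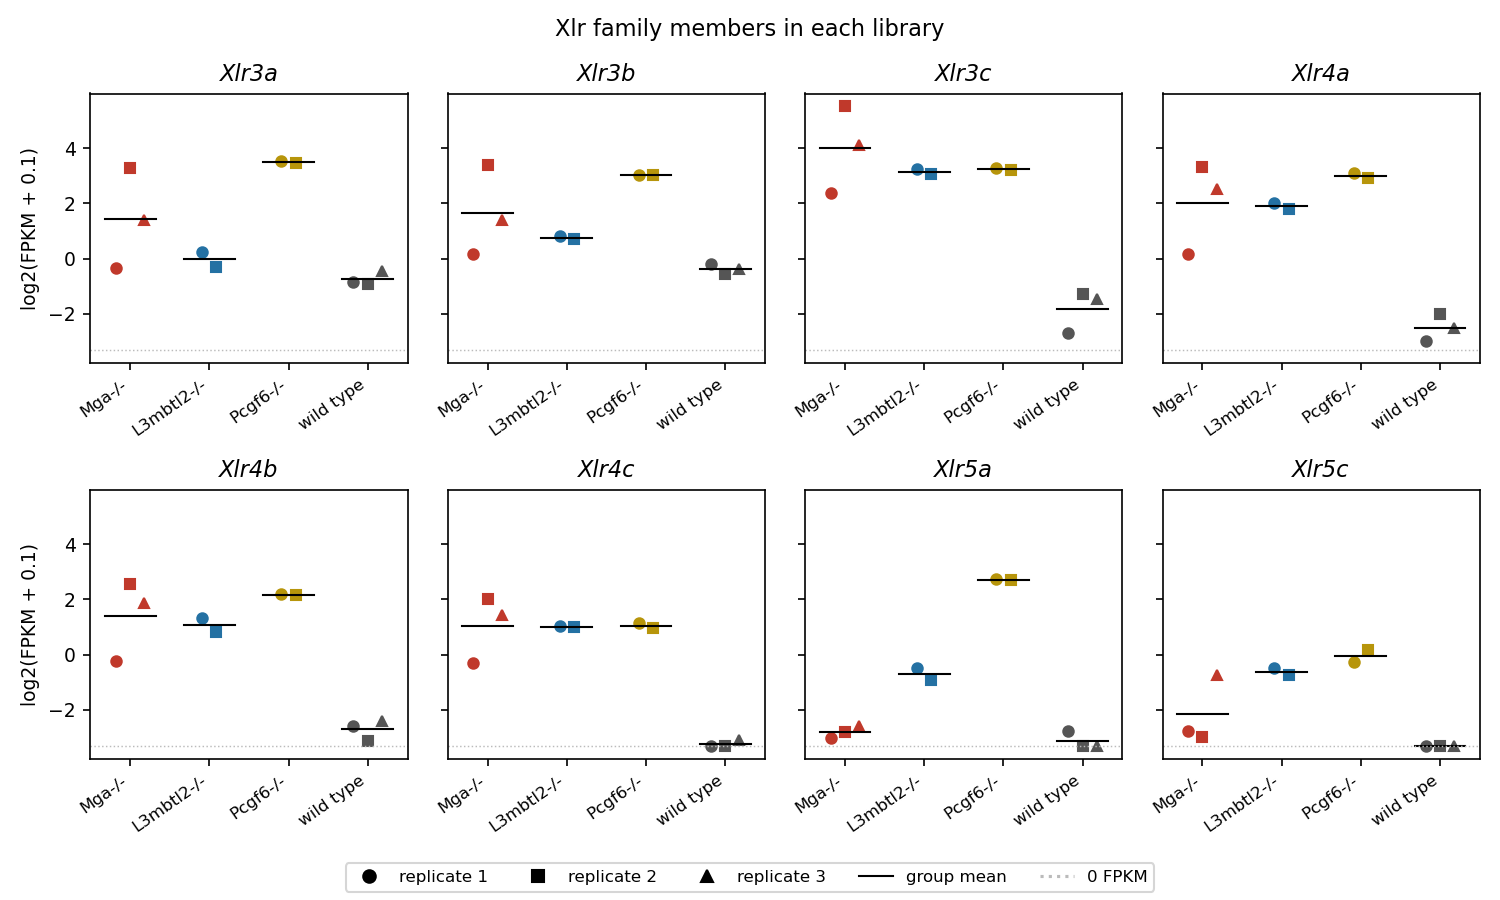
log2(FPKM + 0.1) of each of the 8 members in each library, by genotype, with a line at the group mean and a dotted line at the value of 0 FPKM. Xlr5a stands near 0 FPKM in the Mga-/- and wild type libraries and at 6.49 and 6.39 FPKM in Pcgf6-/-, whereas Xlr4c has similar group means in all 3 knockouts.

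The balance of the Xlr3 copies is given as ratios within each library, which its scaling cannot change; these follow from the values that chose the members and carry no test. The ratio of the FPKM of Xlr3c to that of Xlr3a was 7.36, 4.83 and 6.83 in replicates 1, 2 and 3 labelled Mga-/-, and 8.68 and 11.5 in L3mbtl2-/- cells. It was 0.834 and 0.828 in Pcgf6-/- cells and 0.116, 0.706 and 0.413 in wild type cells. All 5 libraries of Mga-/- and L3mbtl2-/- were thus above 1 and all 5 of Pcgf6-/- and wild type below it, although the family sum of Pcgf6-/- cells was the higher. In reads, Xlr3c and Xlr3a had 199 and 69 in Mga-/- replicate 1, 357 and 105 in L3mbtl2-/- replicate 1, and 353 and 1081 in Pcgf6-/- replicate 1. The wild type ratios rest on 2 to 13 reads of Xlr3c.

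The ratio of Xlr3a to Xlr3b moved less. It was 0.679, 0.922 and 0.991 in replicates 1, 2 and 3 labelled Mga-/-, 0.650 and 0.467 in L3mbtl2-/-, 1.44 and 1.36 in Pcgf6-/-, and 0.596, 0.757 and 0.948 in wild type. Per length only the 2 Pcgf6-/- libraries of the 10 were above 1. In reads, Xlr3a and Xlr3b had 1081 and 700 in Pcgf6-/- replicate 1 and 857 and 587 in replicate 2, but Xlr3a was also just above Xlr3b in the library labelled Mga-/- replicate 3 (246 and 232) and in wild type replicate 3 (68 and 67).

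**Figure D3:**
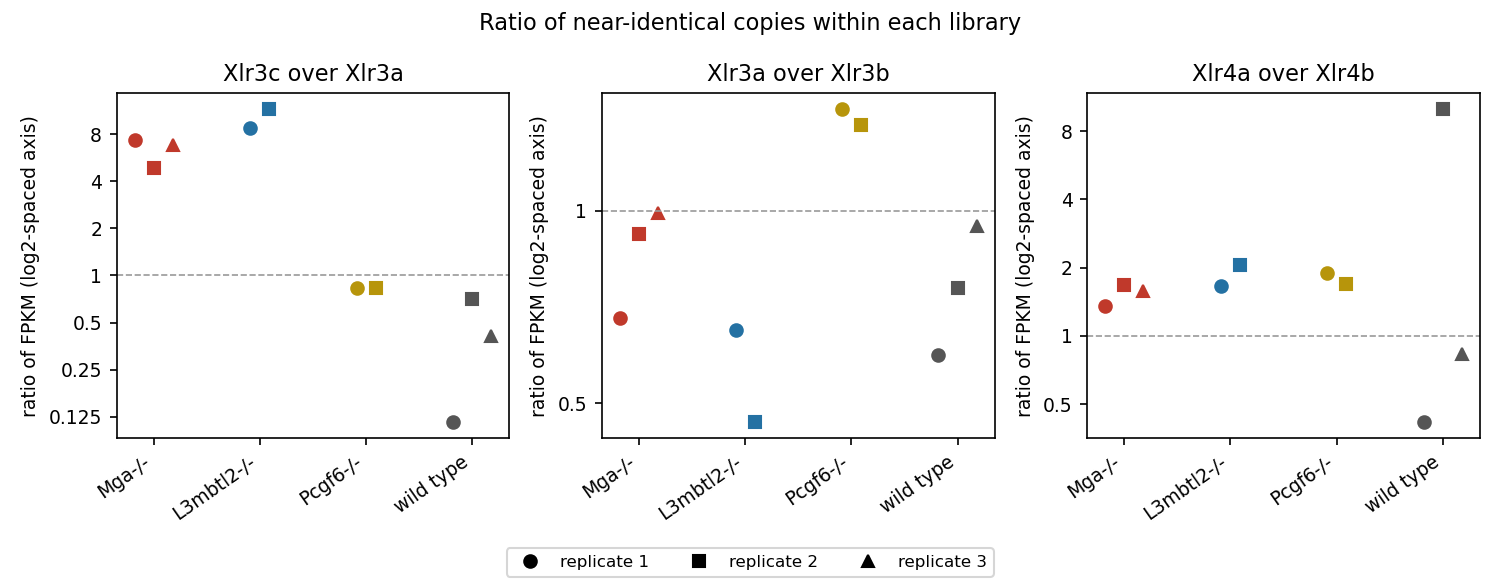
Ratio of the FPKM of 2 near-identical copies within each library, on a log2-spaced axis with a dashed line at 1. The ratio of Xlr3c to Xlr3a is 4.83 to 11.5 in the Mga-/- and L3mbtl2-/- libraries and 0.116 to 0.834 in the Pcgf6-/- and wild type libraries, while that of Xlr4a to Xlr4b is 1.36 to 2.05 in all knockout libraries and rests on 1 to 6 reads of each gene in wild type.

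The 3 Xlr4 genes were nearly silent in wild type cells and were detected in every knockout library. Xlr4a was at 1.02, 9.77 and 5.64 FPKM in replicates 1, 2 and 3 labelled Mga-/-, at 3.98 and 3.37 FPKM in L3mbtl2-/- cells, at 8.44 and 7.43 FPKM in Pcgf6-/- cells, and at 0.0272, 0.146 and 0.0735 FPKM in wild type cells. Its log2 differences from wild type were 4.51, 4.42 and 5.51 in Mga-/-, L3mbtl2-/- and Pcgf6-/- cells. Xlr4b was at 0.756 to 5.82 FPKM in libraries labelled Mga-/-, 1.64 to 2.40 in L3mbtl2-/-, 4.38 to 4.46 in Pcgf6-/- and 0.0146 to 0.0881 in wild type.

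Xlr4c was the member whose group means differed least between knockouts. The means were 2.42 ± 1.63 FPKM in libraries labelled Mga-/- (SD, n = 3), 1.91 ± 0.0269 in L3mbtl2-/- (SD, n = 2) and 1.96 ± 0.181 in Pcgf6-/- cells (SD, n = 2). Wild type cells gave 1 read in all, so the fold is a quotient of read rates, shown with an exact 95% interval that covers counting error only. It was 415 (74.0 to 16414) in Mga-/-, 329 (58.3 to 13042) in L3mbtl2-/- and 339 (60.1 to 13463) in Pcgf6-/- cells. The ratio of Xlr4a to Xlr4c was 4.05 and 4.07 in Pcgf6-/- cells, against 1.45 to 2.48 in Mga-/- and 1.78 to 2.07 in L3mbtl2-/- libraries.

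Of the Xlr5 genes, Xlr5a separated the knockouts. It was at 0.0219, 0.0448 and 0.0677 FPKM in replicates 1, 2 and 3 labelled Mga-/-, at 0.617 and 0.424 FPKM in L3mbtl2-/- cells, at 6.49 and 6.39 FPKM in Pcgf6-/- cells, and at 0.0454, 0 and 0 FPKM in wild type cells. These are 6 reads over the 3 libraries labelled Mga-/-, 45 over L3mbtl2-/-, 506 over Pcgf6-/- and 2 over wild type. The Mga-/- and wild type libraries overlapped, and the L3mbtl2-/- and Pcgf6-/- libraries each stood apart from them and from each other. The ratio of read rates to wild type was 459 (exact 95% interval 126 to 3798) in Pcgf6-/- cells, 37.1 (9.70 to 316) in L3mbtl2-/- cells and 3.17 (0.567 to 32.1) in the libraries labelled Mga-/-. The library labelled Mga-/- replicate 2, whose Xlr3 and Xlr4 sums were the highest of all libraries, held 2 reads of Xlr5a.

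Xlr5c, at the right end of the cluster, stayed low throughout. It was at 0.0484, 0.0248 and 0.4999 FPKM in replicates 1, 2 and 3 labelled Mga-/-, at 0.607 and 0.495 FPKM in L3mbtl2-/- cells and at 0.724 and 1.02 FPKM in Pcgf6-/- cells, with no reads in wild type cells. Against a floor of 3 reads over the wild type group, its read rate was at least 8.11-fold higher in Mga-/-, at least 23.7-fold higher in L3mbtl2-/- and at least 36.9-fold higher in Pcgf6-/- cells. In the libraries labelled Mga-/-, 20 of its 23 reads came from replicate 3. Together the 2 Xlr5 members made up 14.1% and 15.1% of the family sum in Pcgf6-/- cells, 5.62% and 5.05% in L3mbtl2-/- cells and 0.0810% to 1.63% in the libraries labelled Mga-/-.

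**Figure D4:**
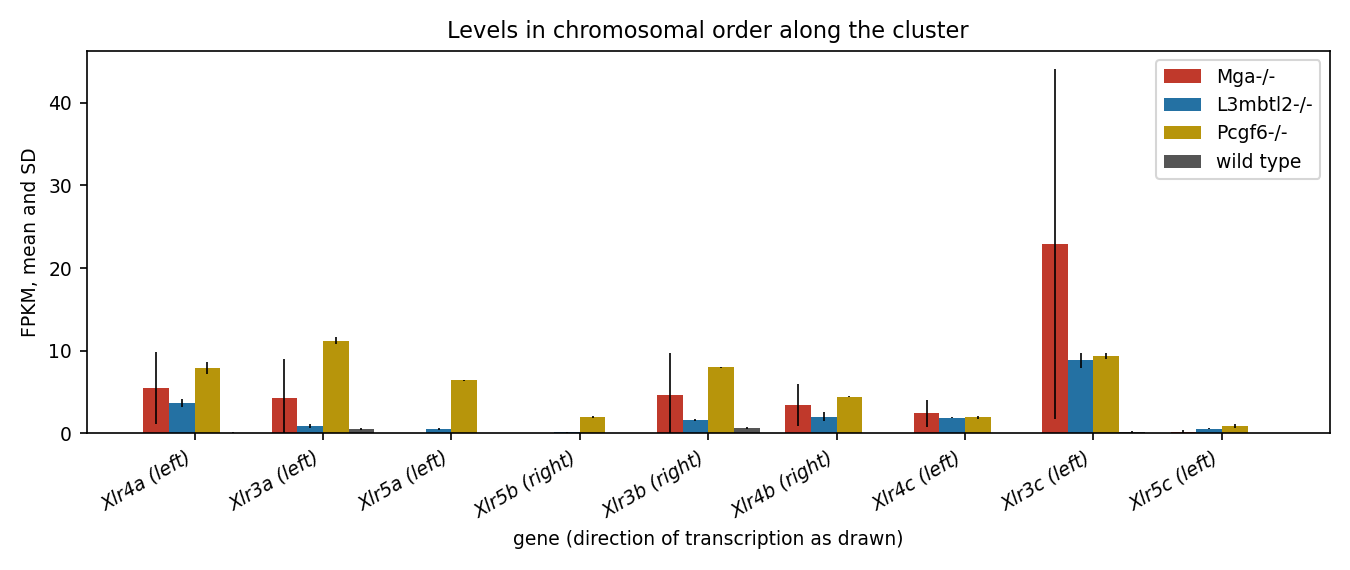
Mean FPKM of the 8 members and Xlr5b by genotype, with genes in their order along chromosome X and error bars of 1 SD (n = 3 for Mga-/- and wild type, n = 2 for L3mbtl2-/- and Pcgf6-/-; bars that would pass below 0 end at 0). Xlr3c and Xlr4c have their highest mean in the libraries labelled Mga-/-, and the other 6 members, at both ends of the cluster and within it, in Pcgf6-/-. For Xlr4c this rests on Mga-/- replicate 2 (3.94 FPKM, against 0.705 and 2.61 in replicates 1 and 3). Without it the log2 difference of Xlr4c from wild type is 3.81, against 4.25 in L3mbtl2-/- and 4.28 in Pcgf6-/-.

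In limma's fit over all 15731 tested genes, in which members are counted with no claim since they were chosen with this contrast known, 6 of 8 members passed as higher in the libraries labelled Mga-/- (Xlr5a and Xlr5c did not), beside 22.8% of all tested genes. In L3mbtl2-/- cells 6 of 8 passed as higher (Xlr3a and Xlr3b did not), beside 23.4%. In Pcgf6-/- cells 8 of 8 passed as higher, beside 5.45%. No member passed as lower. With only the libraries compared in the fit, Xlr3a and Xlr3b passed in L3mbtl2-/- cells. All 6 tested members then passed as higher there, beside 6072 of 14505 genes. In Mga-/- cells 4 of 6 tested members did (Xlr3a and Xlr3b did not), beside 2316 of 14789 genes. In Pcgf6-/- cells it was 8 of 8, beside 3824 of 14093. The median log2 difference of the members was 3.15 in Mga-/-, 3.24 in L3mbtl2-/- and 4.58 in Pcgf6-/- cells, or 3.57, 4.01 and 4.97 with Xlr5c at its fold over the floor, against medians of 0.10, 0.13 and 0.04 over all tested genes. All 8 members passed the filter on low values. Xlr3b reached its level in all 10 libraries and Xlr3a in 8, and the other 6 members reached it in knockout libraries only, so those 6 passed only through the groups in which they are high. Every library labelled Mga-/- was above every wild type library at 7 of 8 members, beside 28.3% of tested genes. For L3mbtl2-/- it was 8 of 8, beside 46.7%, and for Pcgf6-/- 8 of 8, beside 36.2%. Without the library labelled Mga-/- replicate 2 the count of members higher in Mga-/- was 7. In Pcgf6-/- cells the count was 5 without any of the wild type replicates 1, 2 or 3 and 1 without either Pcgf6-/- replicate, when the lone library left is assumed to vary like the other groups.

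Relatives outside the 8 did not share 1 pattern. Xlr, the founding gene of the family, lies apart from the cluster (ENSMUSG00000054626, chromosome X, 53777118 to 53797706). It was at 11.1, 4.02 and 16.0 FPKM in replicates 1, 2 and 3 labelled Mga-/-, at 6.61 and 6.44 FPKM in L3mbtl2-/- cells, at 0.959 and 0.929 FPKM in Pcgf6-/- cells, and at 0.0717, 0.0962 and 0.0805 FPKM in wild type cells. Its log2 difference from wild type was 5.63 ± 0.42 in Mga-/- (SE, limma), 5.18 ± 0.47 in L3mbtl2-/- and 2.52 ± 0.47 in Pcgf6-/- cells. Xlr passed the filter on low values only through the 7 knockout libraries, where it had to be higher, so no test is given. Of the libraries labelled Mga-/-, replicate 2 was the lowest for Xlr and the highest for the family sum, and the Pcgf6-/- libraries were the lowest of the knockouts for Xlr. The promoter window of Xlr held GCGGGAA, which no window of the 8 members did, and that of Sycp3 held all 3 motifs.

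Xlr5b, the copy inside the cluster, had 5 reads over the libraries labelled Mga-/-, 12 over L3mbtl2-/-, 149 over Pcgf6-/- and none over wild type. It was at 1.93 and 2.102 FPKM in Pcgf6-/- cells, a read rate at least 90.1-fold above the floor of 3 wild type reads, and in L3mbtl2-/- cells it was at least 6.60-fold above that floor. It passed the filter on low values only through the 2 Pcgf6-/- libraries, where it is high, so no test is given. Since 99.4% of aligned bases are the same in the transcripts of Xlr5a and Xlr5b, their levels cannot be told apart fully.

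Sycp3, the autosomal relative (ENSMUSG00000020059, chromosome 10, 88459569 to 88473236), was at 22.2, 3.56 and 29.4 FPKM in replicates 1, 2 and 3 labelled Mga-/-, at 1.13 and 1.24 FPKM in L3mbtl2-/- cells, at 3.37 and 3.19 FPKM in Pcgf6-/- cells, and at 2.32, 2.46 and 1.75 FPKM in wild type cells. It rose by 2.57 ± 0.66 in Mga-/- cells (limma adjusted p = 0.0149). The differences of -0.81 ± 0.73 in L3mbtl2-/- (adjusted p = 0.405) and 0.58 ± 0.73 in Pcgf6-/- cells (adjusted p = 0.678) did not pass. The fit uses 1 spread per gene for all groups. The log2 SD of Sycp3 was 1.63 in libraries labelled Mga-/-, 0.08 in L3mbtl2-/-, 0.06 in Pcgf6-/- and 0.25 in wild type. These results therefore do not show an unchanged level. All L3mbtl2-/- libraries lay below, and all Pcgf6-/- libraries above, every wild type library. The pseudogenes Xlr3d-ps, Xlr4d-ps and Xlr4e-ps and the Y-linked relative Sly did not reach the filter on low values. Xlr4d-ps had 16 reads over the libraries labelled Mga-/-, 3 over L3mbtl2-/- and none over Pcgf6-/- or wild type. Xlr4e-ps had 13 over the libraries labelled Mga-/-, 13 over L3mbtl2-/-, 2 over Pcgf6-/- and none over wild type. Xlr3d-ps had 2 over the libraries labelled Mga-/-, 7 over L3mbtl2-/- and none over Pcgf6-/- or wild type. Sly had none in Mga-/- or L3mbtl2-/- and 7 each in Pcgf6-/- and wild type. The other 4 listed relatives, Slx, Slxl1, Xlr5d-ps and Xlr3e-ps, were not analysed here.

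**Figure D5:**
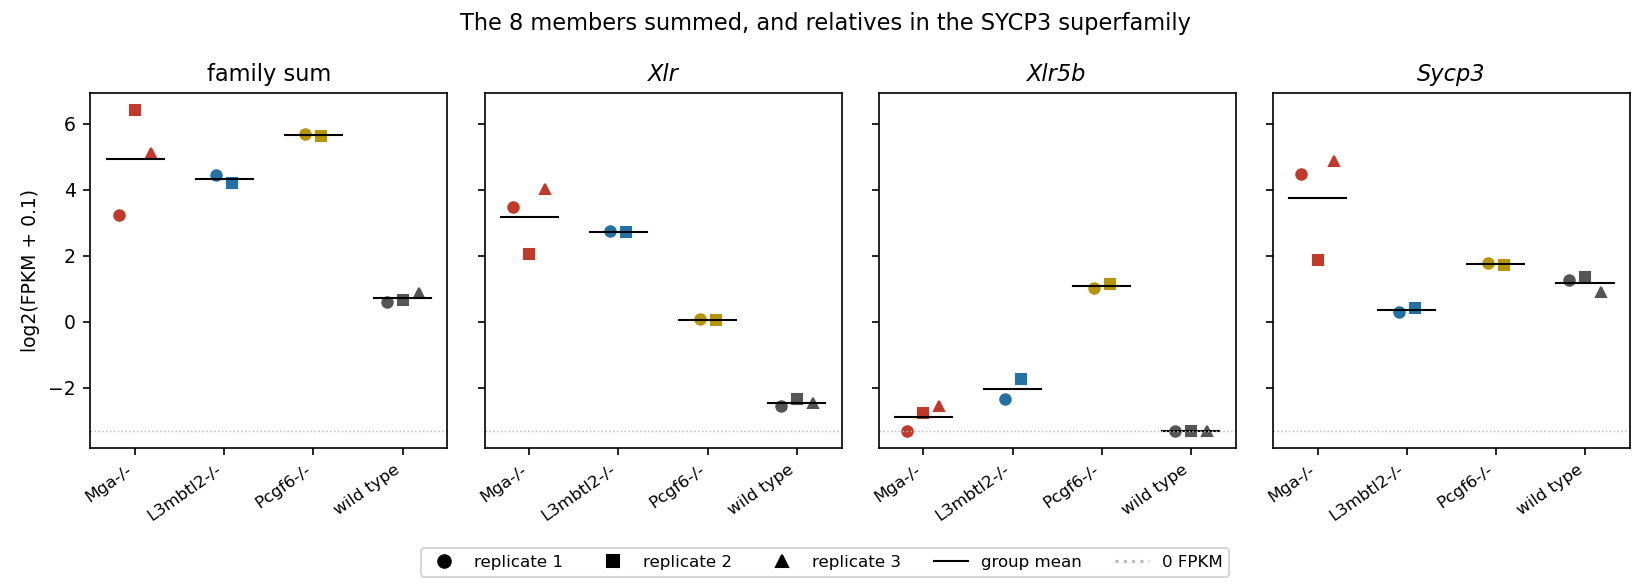
log2(FPKM + 0.1) in each library for the sum of the 8 members and for Xlr, Xlr5b and Sycp3, with a line at the group mean and a dotted line at 0 FPKM. Among the libraries labelled Mga-/-, replicate 2 (squares) is the highest for the family sum and the lowest for Xlr and Sycp3.

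Within 500 kb of the span of the members 33 other genes were listed and 17 tested, Xlr5b among them. In the libraries labelled Mga-/- 5 of the 17 rose and 3 fell, beside 22.8% and 16.7% of all tested genes. In L3mbtl2-/- cells 3 rose and 2 fell, beside 23.4% and 16.7%, and in Pcgf6-/- cells 3 rose and none fell, beside 5.45% and 4.62%. Xlr5b is 1 of the 3 counted as risen in L3mbtl2-/- and in Pcgf6-/- cells. It passed the filter on low values only through Pcgf6-/- libraries, where it is high, so its calls are a description and no test. In L3mbtl2-/- cells its call rests on 12 reads. The shares of all tested genes are an unlike background for Xlr5b. Pnma5, 37.2 kb to the left, was at 17.1 ± 0.496 FPKM in Pcgf6-/- cells (SD, n = 2) and 4.41 ± 0.153 in wild type cells (SD, n = 3), a log2 rise of 1.93 ± 0.13 (limma adjusted p = 0.000180). In Mga-/- and L3mbtl2-/- cells its differences were -0.05 ± 0.12 (adjusted p = 0.737) and -0.30 ± 0.13 (adjusted p = 0.0939). Gm18336, 103 kb to the right, rose in all 3 knockouts, by 5.07 ± 0.19 in Mga-/-, 3.86 ± 0.21 in L3mbtl2-/- and 3.12 ± 0.21 in Pcgf6-/- cells (adjusted p = 1.14e-06, 1.30e-05 and 0.000195). F8a, a gene inside the cluster, rose by 1.12 ± 0.19 in Mga-/- cells (adjusted p = 0.00273) and did not pass in L3mbtl2-/- (adjusted p = 0.186) or Pcgf6-/- (adjusted p = 0.113). Nsdhl, an enzyme of cholesterol synthesis 116 kb to the left, had a log2 difference of -0.96 ± 0.14 in Mga-/- and -1.22 ± 0.16 in L3mbtl2-/- cells (limma adjusted p = 0.00129 and 0.000709). Zfp185 rose by 0.66 in Mga-/- cells (adjusted p = 0.0468), Zfp275 fell by 0.34 in L3mbtl2-/- cells (adjusted p = 0.0364) and Haus7 fell by 0.22 in Mga-/- cells (adjusted p = 0.0402), and none of the 3 passed in another knockout. The median difference over 590 tested X-linked genes outside the family was 0.16, 0.16 and 0.05 in Mga-/-, L3mbtl2-/- and Pcgf6-/- cells, against 0.10, 0.13 and 0.04 over other chromosomes.

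A list of 17 other germ cell genes linked to the sex chromosomes was set beside the family, and 15 were tested. In Mga-/- cells 10 rose and 2 fell, in L3mbtl2-/- cells 10 rose and 2 fell, and in Pcgf6-/- cells 5 rose and 1 fell, with list medians of 3.82, 2.80 and 1.22. Over all tested genes 22.8% rose and 16.7% fell in Mga-/-, 23.4% and 16.7% in L3mbtl2-/-, and 5.45% and 4.62% in Pcgf6-/- cells, with medians of 0.10, 0.13 and 0.04. Tex11, a meiotic protein of spermatocytes, was at 33.2 ± 8.79 FPKM in libraries labelled Mga-/- (SD, n = 3), 6.71 ± 0.424 in L3mbtl2-/- (SD, n = 2), 10.6 ± 0.0630 in Pcgf6-/- (SD, n = 2) and 0.989 ± 0.219 in wild type cells (SD, n = 3). Its rises were 4.92 ± 0.21, 2.66 ± 0.23 and 3.31 ± 0.23 (limma adjusted p = 2.24e-06, 0.000133 and 0.000227). Mageb4 and Rhox13 were under 0.5 FPKM in the wild type mean. They passed the filter on low values only through knockout libraries, where they are high, so no test is given. Rhox13, a homeobox gene of germ cells, had log2 differences from wild type of 7.04, 8.10 and 6.79. Other genes of the list, such as Nxf2 and Tex13b (wild type means 0.119 and 0.0501 FPKM), passed in the same way. The shares of all tested genes are thus an unlike background for the counts of this list. Markers of 2-cell-like cells, summed over 9 genes, were at 4.90, 6.26 and 31.5 FPKM in replicates 1, 2 and 3 labelled Mga-/-, 0.984 to 1.23 in L3mbtl2-/-, 19.2 to 19.4 in Pcgf6-/- and 0.0407 to 0.106 in wild type. Spermatocyte markers, over 10 genes, were at 749 to 1554 FPKM in libraries labelled Mga-/-, 751 to 757 in L3mbtl2-/-, 132 to 134 in Pcgf6-/- and 31.6 to 35.2 in wild type. Pcgf6-/- cells thus had the highest mean Xlr sum and the lowest spermatocyte sum of the knockouts.

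Over the 10 libraries, the genes outside the family with the pattern most like that of the family sum were, in order, Mir3569, Mageb4, Tex11, Tbx3 and Mageb10-ps. Likeness was the root-mean-square difference, over the 10 libraries and among 13376 genes, between log2(FPKM + 0.1) relative to its wild type mean and the same of the sum. It was 1.03 for Mir3569 and 1.07, 1.13, 1.16 and 1.21 for the others. Mir3569 is very short (chromosome 7, 30589380 to 30589437), so its FPKM values rest on few reads. Its means were 5.46 FPKM in libraries labelled Mga-/-, 5.55 in L3mbtl2-/-, 5.34 in Pcgf6-/- and 0.215 in wild type. They were nearly level across the knockouts, unlike those of the family sum. Mageb4 and Mageb10-ps lie beside each other on chromosome X and can share reads. Mageb4, a germ cell gene of the MAGE family, was at 8.61, 5.59 and 20.9 FPKM in replicates 1, 2 and 3 labelled Mga-/-, 4.29 and 3.55 in L3mbtl2-/-, 9.37 and 9.31 in Pcgf6-/-, and 0.135 to 0.226 in wild type. Tbx3, a T-box transcription factor, was highest in Mga-/- replicate 2, at 59.7 FPKM, as the family was. The single members Xlr4b, Xlr4c and Xlr4a were closer to the sum they are part of, at 0.23, 0.46 and 0.53, and Xlr5a was at 2.33.

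Of the 14 PRC1.6 subunit genes, 3 rose and 1 fell in Mga-/-, 6 rose and 3 fell in L3mbtl2-/-, and 3 rose and 1 fell in Pcgf6-/- cells, with list medians of 0.11, 0.22 and 0.06. All tested genes had medians of 0.10, 0.13 and 0.04, and 22.8%, 23.4% and 5.45% of them rose while 16.7%, 16.7% and 4.62% fell. The subunit that fell in Pcgf6-/- cells is Pcgf6 itself, and L3mbtl2 itself is among the 3 that fell in L3mbtl2-/- cells, with Tfdp1 and Ring1. E2f6, whose protein recruits the complex to E2F elements, rose by 1.61 ± 0.10, 1.33 ± 0.11 and 0.82 ± 0.11 (limma adjusted p = 2.09e-05, 0.000116 and 0.00469). Of 14 regulators of chromatin and DNA methylation 2 rose and 5 fell in Mga-/-, 2 rose and 4 fell in L3mbtl2-/-, and none rose and 1 fell in Pcgf6-/- cells, with list medians of -0.01, -0.28 and 0.08, to be read beside the same shares and medians of all tested genes. Ehmt1, a histone methyltransferase, fell in all 3, by 0.58 in Mga-/-, 0.58 in L3mbtl2-/- and 0.40 in Pcgf6-/- cells (limma adjusted p = 0.00136, 0.00218 and 0.0335). Dnmt3b, a DNA methyltransferase, was at 38.2 ± 5.17 FPKM in libraries labelled Mga-/- (SD, n = 3), 33.5 ± 0.102 in L3mbtl2-/- (SD, n = 2), 64.5 ± 0.277 in Pcgf6-/- (SD, n = 2) and 64.9 ± 0.901 in wild type cells (SD, n = 3). Its log2 differences were -0.77, -0.95 and -0.01 (adjusted p = 0.000519, 0.000357 and 0.976). Atrx had a log2 difference of -0.68 ± 0.12 in Mga-/- cells (adjusted p = 0.00331), and its differences of -0.35 in L3mbtl2-/- (adjusted p = 0.0706) and 0.32 in Pcgf6-/- cells (adjusted p = 0.175) did not pass. Xlr levels were thus high in Pcgf6-/- cells with Dnmt3b near its wild type level, and whether these genes bear on the Xlr levels was not tested.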

How the data were processed

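RNA of 10 libraries was measured, in 4 groups taken from the labels. The authors deposited 1 FPKM value for each gene and library, a unit named here from the values. The submitters' processing notes name HTSeq 0.6.0, TopHat2 2.0.12, Bowtie2 2.2.3 and the build GRCm38; no source used here gives the scaling. Each file lists 30460 genes, of which 30221 were given a symbol by GENCODE M21. Whole reads were recovered for the members from the step of 1 read at the annotated exon length, within 0.005 of a read; over all genes 74.7% to 76.4% of values per library came out whole, so no count test was run.

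Genes at 0.5 FPKM or more in at least 2 libraries were tested in R 4.3.3 by limma, version 3.58.1, on a log2(FPKM + 0.1) scale. This was 1 fit over all 10 libraries with a variance prior that follows mean expression, and Benjamini-Hochberg adjusted p-values with a threshold of 0.05. Fold changes on that scale understate those of low genes. The kit does not mark strand, so antisense reads cannot be told apart. Shared 50- and 100-base words and alignments (Biopython version 1.88) used GENCODE transcripts. Intervals of read rates are exact at 95%. The fit was tested on simulated data.

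The members and lists were chosen with earlier results of these data known. All 8 members and all listed relatives are named. Other lists give counts with some examples. Except for Nxf2, Ring1 and Mga, each tested example is among the 4 smallest p of its list in at least 1 comparison. Neighbours are the nearest 3 tested protein-coding genes on each side, and the 5 genes most like the sum exclude predicted models. Pseudocount, filter, scaling, the libraries fitted, a replicate block and leaving out libraries were varied.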

Additional observations from a re-analysis of the deposited data

How the results depend on the processing

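No difference of a member from wild type reversed under another pseudocount, scaling or library left out; 192 such values moved by less than the spread between replicates and 32 moved by more, all of them under another pseudocount. For Xlr4c in L3mbtl2-/- cells the main 4.25 was 1.53 with a pseudocount of 1 and 7.11 with 0.01, and for Xlr4a in Mga-/- cells the main 4.51 was 2.28 with a pseudocount of 1. The differences of the family sum from wild type (main values 4.22 in Mga-/-, 3.61 in L3mbtl2-/-, 4.94 in Pcgf6-/-) were, with a pseudocount of 1, 3.04 in L3mbtl2-/- and 4.33 in Pcgf6-/-. As a mean over members they were 3.05 and 4.56, and as reads not divided by length, an alternative added after seeing the data, 2.94 and 4.64. Without Xlr3c the L3mbtl2-/- value was 2.97. The difference of L3mbtl2-/- from Pcgf6-/- (main -1.33) was -1.87 without Xlr3c and -1.70 in reads. For Mga-/-, whose replicates spread most, the value was 3.65 with a pseudocount of 1, 3.06 as a mean over members, 3.62 in reads and 3.34 without Xlr3c. As a mean over members Mga-/- differed from L3mbtl2-/- by 0.01 (main 0.61) and from Pcgf6-/- by -1.504 (main -0.72). With single libraries left out, the sums ranged from 3.47 to 5.07 in Mga-/-, 3.48 to 3.74 in L3mbtl2-/- and 4.88 to 5.03 in Pcgf6-/- against wild type. Between knockouts the ranges were -0.14 to 1.45 (Mga-/- against L3mbtl2-/-), -1.47 to 0.12 (Mga-/- against Pcgf6-/-) and -1.46 to -1.20 (L3mbtl2-/- against Pcgf6-/-). Members counted as passing ranged from 4 to 7 in Mga-/-, 5 to 6 in L3mbtl2-/- and 1 to 5 in Pcgf6-/-.

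Over all genes 6210, 6297 and 1584 passed in Mga-/-, L3mbtl2-/- and Pcgf6-/-. With only the libraries compared in the fit it was 4054, 10525 and 7096. With single libraries left out it ranged from 4198 to 8647, 2829 to 4764 and 154 to 621. The share of calls that were higher was 57.8% and 58.4% in Mga-/- and L3mbtl2-/-, against 48.1% and 47.6% under median-of-ratios size factors and 46.5% and 47.7% under upper-quartile scaling, under both of which the median of all genes in L3mbtl2-/- was 0.02 in place of 0.13. The deviations of same-numbered wild type and Mga-/- libraries had correlations of 0.01, -0.01 and 0.01 across genes. No shared effect of the replicate number was thus seen, which does not show that the samples were unpaired. With the replicate block 992 genes passed in Pcgf6-/-, and 4, 6 and 7 members passed in Mga-/-, L3mbtl2-/- and Pcgf6-/-. The cause of these changes was not tested. Wild type levels of Xlr4 and Xlr5 rest on 0 to 6 reads a library, which limits their ratios.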
